A study of Mus musculus with 8 samples.

Results

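Of the 19938 genes that a single platform symbol names on the array, 9 make up the calcium store and its pumps in striated muscle: the calsequestrins Casq1 and Casq2, the SERCA pumps Atp2a1, Atp2a2 and Atp2a3, the small pump inhibitors Sln and Pln, and the luminal proteins Srl and Hrc. They were found on the array by gene symbol, and each was measured by 1 probe set. Their levels were compared between knock-in mice carrying the SCA17 allele (KI) and wild-type mice (WT) in the tibialis anterior muscle and the cerebellum. In KI muscle Casq2, the cardiac calsequestrin that slow fibres also express, was 3.25-fold higher than in WT muscle. Casq1, the main calsequestrin of fast muscle, was 1.60-fold lower. Sln, the pump inhibitor sarcolipin, was also called higher in KI muscle, but its WT level was in the array background and the call was lost in 7 of 17 alternatives, among them testing without a filter on low values. None of the pumps passed the test in muscle, and no member passed it in the cerebellum.

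SCA17 is an inherited spinocerebellar ataxia in which the general transcription factor TBP carries too long a run of glutamines, and the KI mice are named for it in the labels. The arrays formed 4 groups of 2: KI muscle (replicates 94 and 97), WT muscle (95 and 96), KI cerebellum (94 and 97) and WT cerebellum (95 and 96). All mice were 3 months old, and 3 mice per genotype are named in the labels, while each genotype and tissue had 2 arrays here. Strain, sex, the length of the repeat, the promoter and cells that express the KI allele, and whether a replicate number stands for an animal are not given in these sources. Where 2 arrays are not separate animals, a p-value measures only the spread between these arrays.

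In a striated muscle fibre, calcium is stored in the sarcoplasmic reticulum and leaves it through ryanodine receptors when the fibre is excited. SERCA pumps use ATP to return the calcium to the store, and the fibre relaxes. Calsequestrins bind calcium inside the store close to the release channels. Fast fibres mainly use Casq1 and the pump SERCA1 (Atp2a1). Cardiac muscle uses Casq2 and SERCA2 (Atp2a2), which slow fibres also express. Casq1 is not confined to fast fibres. Sarcolipin and phospholamban (Pln) are short membrane peptides that bind the pumps and lower their activity. Sarcalumenin (Srl) and the histidine-rich calcium-binding protein (Hrc) lie in the lumen and bind calcium or the pump. In the cerebellum, SERCA2 is the general pump of the endoplasmic reticulum, and SERCA3 (Atp2a3) is known from Purkinje cells.

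The RefSeq promoter table (GRCm38.p6) held 6 of the 9 genes. The promoter stretches of both calsequestrins are shown because these paralogues differed in opposite directions in KI muscle. Each is the 250 bases before the start of the gene, 5′ to 3′ on the strand of the gene, with matches to E-box, TATA, MEF2 and CArG motifs in capitals. The Casq1 stretch lies at chr1:172219896-172220145 on the minus strand and the Casq2 stretch at chr3:102086165-102086414 on the plus strand.
Casq1: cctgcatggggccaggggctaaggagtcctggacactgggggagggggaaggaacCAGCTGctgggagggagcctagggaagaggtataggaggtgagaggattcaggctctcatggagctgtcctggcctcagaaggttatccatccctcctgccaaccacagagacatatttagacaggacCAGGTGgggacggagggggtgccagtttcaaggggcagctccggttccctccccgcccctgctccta
Casq2: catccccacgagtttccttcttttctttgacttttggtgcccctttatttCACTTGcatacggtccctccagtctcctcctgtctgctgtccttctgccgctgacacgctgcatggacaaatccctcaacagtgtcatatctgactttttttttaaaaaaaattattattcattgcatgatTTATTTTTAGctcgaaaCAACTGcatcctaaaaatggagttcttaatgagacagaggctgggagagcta
The Casq1 stretch was 61.6% G or C and the Casq2 stretch 41.6%, beside a median of 52.4% over 32851 stretches of this length. Each held 2 E-boxes (CANNTG, the site of MyoD and related factors), starting 195 and 67 bases before the gene for Casq1 and 200 and 52 bases before it for Casq2. At least 1 such match was present in 66.2% of all stretches. The E-box farther from the start of Casq1 read CAGCTG, a form found in 13.0% of stretches. Casq2 held a match to the MEF2 site 69 bases before its start, present in 2.92% of stretches, and Casq1 held none. Neither held TATAAA, which 12.4% of stretches had, or a CArG box, which 1.47% had. Both strands were searched for every motif, and CAGCTG is also an E-box by the wider form. These matches describe letters only and were not tested for binding.

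The deposited values were log2 expression values made by RMA, which corrects background, brings all arrays to one distribution and summarises the probes of a set. Array medians lay between 5.40 and 5.51, the 40th percentile of each array between 4.96 and 5.05, and both arrays of a group correlated with r from 0.977 to 0.989 over probe sets. Testing a gene in muscle or cerebellum required the 40th percentile of the array to be reached on 2 or more of the 4 arrays there, so levels near 5 are close to the background. The array of KI muscle replicate 94 stood apart at Ttr, the transthyretin of choroid plexus and blood plasma, with 8.13 against 5.77 to 6.08 on the other muscle arrays, and at Mb, the myoglobin of fibres, with 10.08 against 10.93 to 11.51. Because levels of different probe sets cannot be compared, each gene was compared only with itself across arrays, or paralogues by their difference within an array. In these bulk tissues, fewer cells of a type and less RNA per cell cannot be told apart.

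**Figure D1:**
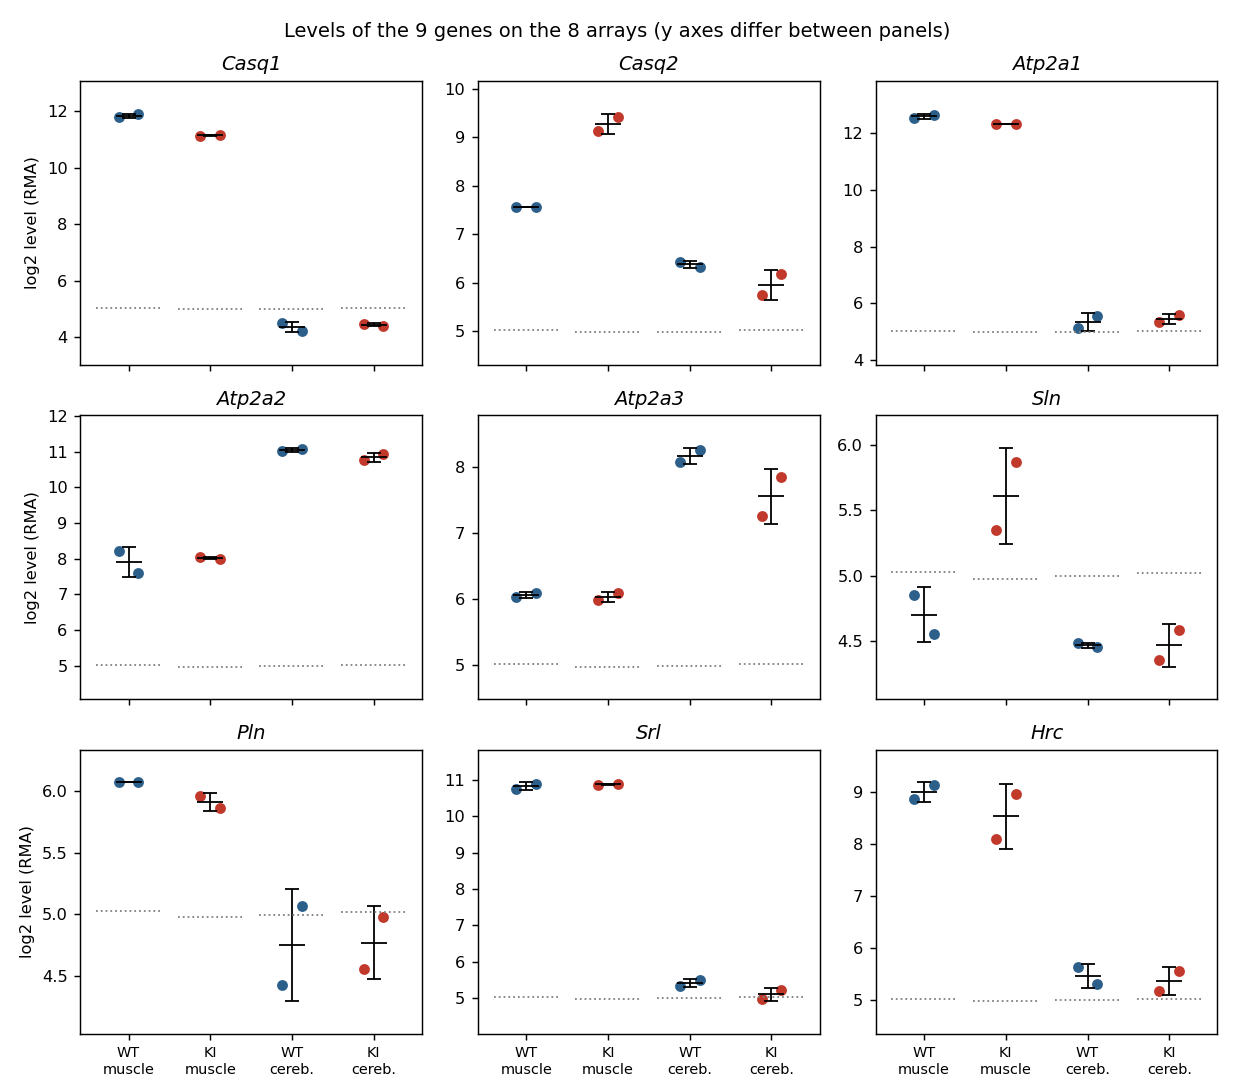
Log2 RMA level of each of the 9 genes on each of the 8 arrays, by genotype and tissue, with points for arrays and bars for group means. In muscle, the KI arrays lie above the WT arrays for Casq2 and Sln and below them for Casq1, Atp2a1 and Pln.

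In muscle, all 9 genes reached the level for testing and 3 were called at an adjusted p under 0.05, 2 higher and 1 lower in KI. Over all 13933 genes tested in muscle, 3.55% were called, 2.66% higher and 0.890% lower. One of the members called higher, Sln, passed the filter only through its KI arrays, and 2 members were called with no filter. The median difference of the 9 genes was -0.02 on the log2 scale, beside 0.03 over all tested genes. At an unadjusted p under 0.05 stood 3 of the 9 and 20.3% of all tested genes. Differences between KI and WT are from limma, as log2 with SE, and levels are on the log2 scale with SD over n = 2 arrays. The model shares 1 estimate of the spread over all 4 groups, so SEs and p-values in muscle also carry the spread of the cerebellar arrays.

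Casq2 was at 9.12 and 9.42 on the KI muscle arrays and at 7.57 and 7.57 on the WT muscle arrays. Both KI arrays were well above both WT arrays, which differed little from each other. The group levels were 9.27 ± 0.21 in KI and 7.57 ± 0.001 in WT (SD, n = 2). The log2 difference was 1.70 ± 0.16 (SE; 95% interval 1.34 to 2.06; limma adjusted p = 0.00158). Casq2 ranked 7 by size of rise and 12 by unadjusted p among the 13933 genes. It was called under all 18 alternative settings, with adjusted p from 0.000366 to 0.0167.

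Casq1 was at 11.14 and 11.17 on the KI muscle arrays and at 11.79 and 11.89 on the WT arrays. The genotypes did not overlap, and both arrays of a genotype lay close together. The levels were 11.16 ± 0.02 in KI and 11.84 ± 0.07 in WT (SD, n = 2), a log2 difference of -0.68 ± 0.12 (SE; 95% interval -0.95 to -0.41; limma adjusted p = 0.0199). Casq1 ranked 189 by unadjusted p. Its call rested on all 4 muscle arrays: leaving out any of them gave limma adjusted p from 0.0833 to 0.0873, and the muscle arrays fitted alone gave 0.0501.

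Among the pumps, Atp2a1, the SERCA1 of fast fibres, was at 12.34 and 12.32 on the KI muscle arrays and at 12.53 and 12.66 on the WT arrays. Both KI arrays were below both WT arrays, but the log2 difference of -0.27 ± 0.16 (SE) did not pass (limma adjusted p = 0.373; 95% interval -0.62 to 0.08). Atp2a2, the SERCA2 of slow fibres, heart and most other cells, was at 8.04 and 8.00 in KI and at 8.21 and 7.61 in WT muscle. The WT arrays lay on either side of the KI arrays, and the log2 difference was 0.11 ± 0.18 (SE; limma adjusted p = 0.772; interval -0.28 to 0.51). Its sign changed to -0.19 without the WT muscle 96 array. Atp2a3, the SERCA3 of blood cells, endothelium and some neurons, was at 5.98 and 6.09 in KI and at 6.03 and 6.09 in WT muscle, so the genotypes overlapped. Its log2 difference was -0.02 ± 0.18 (SE; limma adjusted p = 0.961; interval -0.42 to 0.37), and its sign depended on the scaling, at 0.01 with arrays centred on their medians. For Atp2a1 the SDs were 0.02 in KI and 0.09 in WT muscle, and 0.18 and 0.31 in the cerebellum, which also enter its SE. These intervals do not show that the pumps were alike in both genotypes.

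Sln, encoding sarcolipin, was at 5.35 and 5.87 on the KI muscle arrays and at 4.85 and 4.55 on the WT arrays. Neither WT array reached its 40th percentile, so Sln was tested only because of its KI level, and a higher value in KI is in part a condition of having been tested. The levels were 5.61 ± 0.37 in KI and 4.70 ± 0.21 in WT (SD, n = 2), a log2 difference of 0.91 ± 0.18 (SE; 95% interval 0.51 to 1.31; limma adjusted p = 0.0286). With no filter on low values the adjusted p was 0.0546. The call was lost in 7 of the 17 alternatives that tested Sln, among them leaving out KI muscle 97 (limma adjusted p = 0.115), WT muscle 95 (0.0798) or WT muscle 96 (0.109), and a stricter filter at the 60th percentile left Sln out. Pln, encoding phospholamban, the inhibitor of heart and slow fibres, was at 5.96 and 5.86 in KI and at 6.07 and 6.07 in WT muscle. Both KI arrays were below both WT arrays, with a log2 difference of -0.16, smaller than its SE of 0.20 (limma adjusted p = 0.705; interval -0.62 to 0.30). That SE also carries the cerebellar spread of Pln, with SDs of 0.29 in KI and 0.45 in WT, against 0.08 and 0.0 in muscle.

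Of the luminal proteins, Srl, sarcalumenin, was at 10.86 and 10.89 in KI and at 10.76 and 10.90 in WT muscle. These values overlapped, and the log2 difference was 0.04 ± 0.12 (SE; limma adjusted p = 0.885; interval -0.23 to 0.32). Hrc, the histidine-rich calcium-binding protein, was at 8.09 and 8.97 in KI and at 8.87 and 9.13 in WT muscle. The array of KI muscle 94 alone was low: the log2 difference of -0.47 ± 0.26 (SE; limma adjusted p = 0.350; interval -1.06 to 0.12) became -0.03 without it. That is the array on which Ttr was high and Mb low.

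Counted by overlap alone, the KI muscle arrays lay above the WT arrays for 2 of the 9 genes and below them for 3. Of all tested genes, 30.3% had KI above WT and 19.9% KI below WT without overlap, 50.2% in all. A lack of overlap was therefore common on these muscle arrays and says little of any single gene.

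**Figure D2:**
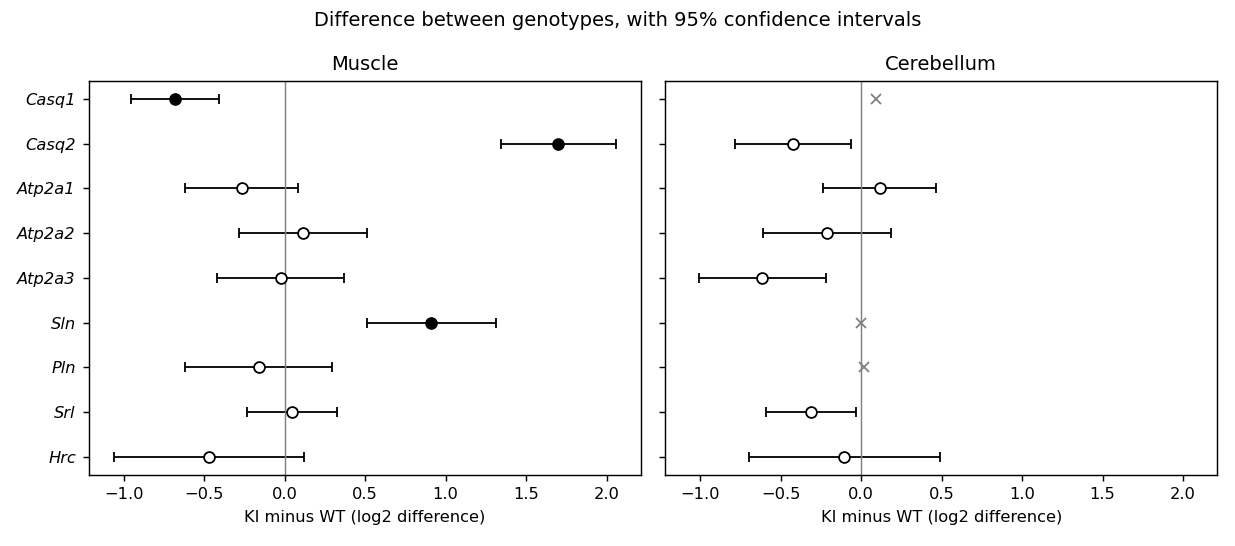
Log2 difference, KI minus WT, of each gene in muscle and cerebellum with its 95% interval from limma; filled points passed an adjusted p under 0.05. In muscle Casq2 and Sln lie above 0 and Casq1 below it, and every cerebellar point that was tested is open.

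The fast and the slow or cardiac paralogues were next compared as the log2 difference between their probe sets on the same array. This removes what a whole array shares, and only its change between genotypes can be read, since the probe sets differ in response. Casq1 minus Casq2 in muscle was 2.02 and 1.75 on the KI arrays and 4.22 and 4.32 on the WT arrays. The KI arrays were far below the WT arrays, with means of 1.89 ± 0.19 in KI and 4.27 ± 0.07 in WT (SD, n = 2), a change of -2.38, or 5.21-fold towards Casq2. With 2 arrays against 2, the exact two-sided permutation p was 0.33, the smallest this design allows, so no paralogue pair can pass a test of this kind. Casq1 and Casq2 were each called on their own by limma, as given above.

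Atp2a1 minus Atp2a2 in muscle was 4.30 and 4.31 on the KI arrays and 4.32 and 5.05 on the WT arrays. The lower WT array was within 0.02 of the KI arrays, so the change of -0.38 rests on WT muscle 96 and was close to the pooled SD of 0.37; the change ran from -0.74 to -0.01 as 1 array at a time was left out. Atp2a1 minus Atp2a3 was 6.36 and 6.23 in KI and 6.50 and 6.57 in WT muscle, a change of -0.24. Both pump pairs thus differed between genotypes by less than the calsequestrin pair; that contrast was not tested. Sln minus Pln was -0.61 and 0.02 in KI and -1.22 and -1.52 in WT muscle, a change of 1.07 that ran from 0.76 to 1.39 as 1 array at a time was left out. Sln was in the array background on both WT arrays, so the size of this change is set in part by that background. The exact permutation p was again 0.33 for each of these pairs (two-sided, n = 2 per group).

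In the cerebellum, Casq1 minus Casq2 was -1.26 and -1.77 in KI and -1.94 and -2.12 in WT, a change of 0.51. This runs the other way from muscle, but Casq1 was below the 40th percentile on all cerebellar arrays, so the pair there follows Casq2. Atp2a1 minus Atp2a2 changed by 0.32 and Atp2a1 minus Atp2a3 by 0.73, the latter from -2.95 and -2.69 in WT to -1.93 and -2.26 in KI. Sln minus Pln overlapped between the genotypes, with a change of -0.02 (exact permutation p = 1.0).

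**Figure D3:**
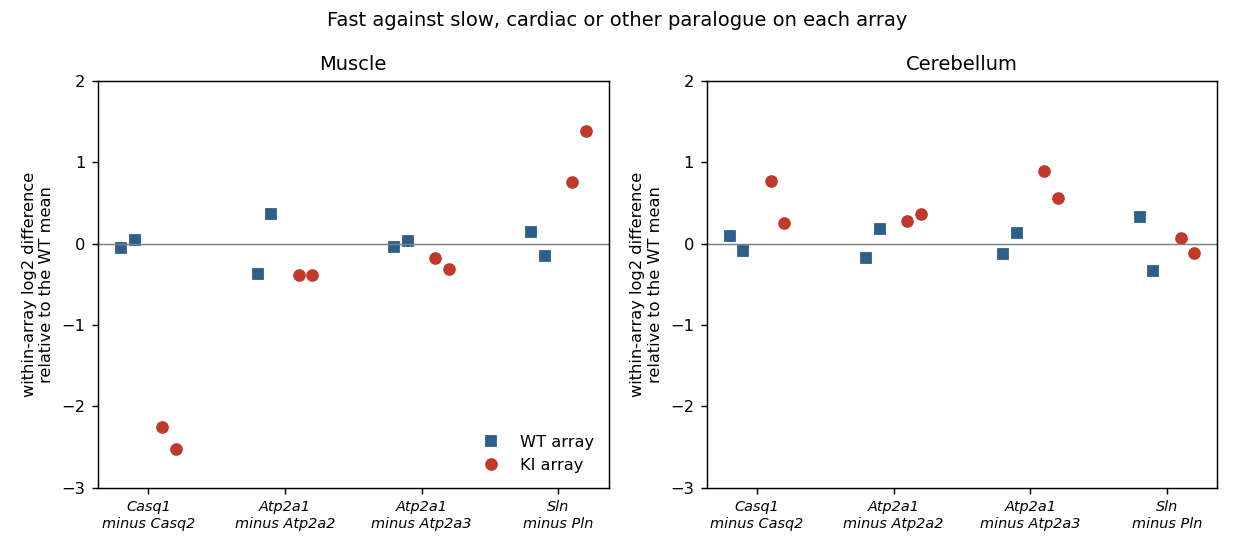
Within-array log2 difference of each paralogue or inhibitor pair on the 8 arrays, relative to the WT mean of the pair in that tissue, with a point per array. Casq1 minus Casq2 in muscle lies close to the WT mean on both WT arrays and far below it on both KI arrays, with a mean change of -2.38.

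WT muscle and WT cerebellum were compared to place these levels in each tissue. Of the 9 genes, 8 differed at least 2-fold with an adjusted p under 0.05, 6 higher and 2 lower in muscle. Over the 14708 genes tested, 27.3% were called, 10.9% higher and 16.4% lower in muscle. The log2 difference of muscle over cerebellum was 7.48 ± 0.12 for Casq1 (SE; 179-fold; limma adjusted p = 1.28e-09), 7.25 ± 0.16 for Atp2a1 (153-fold; 1.49e-09), 5.42 ± 0.12 for Srl (42.7-fold; 1.49e-09) and 3.54 ± 0.26 for Hrc (11.6-fold; 1.94e-06). The cerebellar level of Casq1 was in the array background, and those of Atp2a1, Srl and Hrc were close to it. The sizes of these folds are therefore set in part by that background, and the order of Casq1 and Atp2a1 cannot be read. Pln (1.32 ± 0.20, SE; limma adjusted p = 0.000304) and Casq2 (1.19 ± 0.16; 0.000124) differed far less, and their neighbouring values lay within 1 SE of each other. Pln was at 4.43 and 5.07 on the WT cerebellar arrays, so the background limits the size of its difference as well.

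Atp2a2 and Atp2a3 ran the other way. Atp2a2, the general pump, was 8.79-fold lower in WT muscle than in WT cerebellum (log2 -3.14 ± 0.18, SE; limma adjusted p = 2.92e-07), and Atp2a3 was 4.30-fold lower (-2.10 ± 0.18; 4.34e-06). Sln, with both WT groups below the 40th percentile, differed by 0.23 ± 0.18 (limma adjusted p = 0.269). The marker genes of skeletal fibres (Acta1, Ckm, Mb, Ttn, Des and Tcap) summed to 14.25 to 14.29 on the WT muscle arrays and 7.88 to 8.15 on the WT cerebellar arrays on the log2 scale. Those of Purkinje cells summed to 12.28 to 12.45 in WT cerebellum and 7.27 to 7.37 in WT muscle, so both tissue labels matched their markers.

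In the cerebellum, 6 of the 9 genes reached the level for testing and 0 were called with limma, while 3 had an unadjusted p under 0.05. Of all 13641 genes tested there, 28, or 0.205%, were called (0.147% higher and 0.0586% lower), and 5.33% had an unadjusted p under 0.05. The median log2 difference of the 6 was -0.26, beside -0.01 over all genes. Casq1 (4.22 to 4.49), Sln (4.35 to 4.58) and Pln (4.43 to 5.07) were not tested in the cerebellum because of their low level.

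Atp2a3, the pump known from Purkinje cells, was at 7.26 and 7.85 on the KI and at 8.08 and 8.25 on the WT cerebellar arrays. The KI arrays were below the WT arrays, and the log2 difference was -0.61 ± 0.18 (SE; unadjusted p = 0.00644 and adjusted p = 0.549 with limma). Casq2 was at 5.74 and 6.18 in KI and at 6.43 and 6.33 in WT, again without overlap (-0.42 ± 0.16, SE; unadjusted p = 0.0252 and adjusted p = 0.823 with limma). Atp2a2 was at 10.75 and 10.92 in KI and at 11.01 and 11.08 in WT (-0.21 ± 0.18, SE; limma adjusted p = 0.998). Srl was at 4.97 and 5.23 in KI and at 5.34 and 5.48 in WT, close to the background (-0.31 ± 0.12, SE; unadjusted p = 0.0319 and adjusted p = 0.857 with limma). Without the KI cerebellum 94 array the difference of Atp2a3 was -0.32 and that of Casq2 -0.20; without KI cerebellum 97 they were -0.91 and -0.64. For these 4 genes, KI lay below WT without overlap, as it did for 20.0% of all genes tested in the cerebellum (15.3% had KI above WT and 35.3% either). Atp2a1 (KI 5.33 and 5.58, WT 5.12 and 5.56) and Hrc (KI 5.17 and 5.55, WT 5.63 and 5.30) overlapped between the genotypes. Both had an adjusted p of 1.0 with limma, and the sign of each turned when single cerebellar arrays were left out.

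The marker lists of the cerebellum are given beside these values. All 4 of the Purkinje cell markers measured on the array, out of 6 in the list, had negative differences, but none passed and Slc1a6, a glutamate transporter, overlapped between the genotypes (KI 7.16 and 7.62, WT 7.58 and 8.02). Their summed log2 level was 11.62 to 11.81 on the KI and 12.28 to 12.45 on the WT cerebellar arrays. Calb1, the calbindin that buffers calcium in Purkinje cells, differed by -0.57 ± 0.13 (SE; limma adjusted p = 0.310). Pvalb, parvalbumin, a buffer of Purkinje cells and interneurons, differed by -0.57 ± 0.13 (adjusted p = 0.310). The granule cell markers were negative in 6 of 6, with sums of 12.73 to 13.00 in KI and 13.01 to 13.18 in WT. All 6 were lowest on KI cerebellum 94, and Zic1, Zic2, Cbln1 and Pax6 overlapped between the genotypes. Choroid plexus markers were positive in 5 of 5, but their sums overlapped (11.79 to 12.30 in KI and 11.76 to 11.96 in WT). Macrophage and microglia markers were positive in 5 of 5 tested, with sums of 8.64 to 8.76 in KI and 8.42 on both WT arrays. None of these markers passed. Their part in the differences of Atp2a3, Casq2 and Atp2a2 was not tested.

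Whether the effect of genotype differed between the tissues was tested directly, as the muscle difference minus the cerebellar difference. Of the 9 genes 1 was called, beside 0.143% (21) of the 14708 genes tested (15 higher and 6 lower in muscle, or 15 and 10 after a second quantile normalisation), 0.102% with the higher and 0.0408% with the lower effect in muscle. For Casq2 the effects differed by 2.12 ± 0.23 on the log2 scale (SE; 95% interval 1.62 to 2.63; limma adjusted p = 0.0342), positive in muscle and negative in the cerebellum. Casq2 ranked 2 of the 14708 genes by unadjusted p. The call was lost in 6 of the 8 fits with 1 array left out, and kept in the 10 other alternatives. Over those 8 fits the difference ran from 1.9 to 2.34. No other member passed: the differences were -0.77 ± 0.17 for Casq1 (limma adjusted p = 0.112), 0.91 ± 0.25 for Sln (0.177) and 0.59 ± 0.25 for Atp2a3 (0.345), and adjusted p ran from 0.399 to 0.798 for the other 5.

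Genes that act with these 9 were read from lists written by function. Among 12 tested regulators of SERCA and their modifiers, which include Sln and Pln, 2 were called higher in KI muscle and 0 lower. Of all genes tested in muscle, 2.66% were called higher and 0.890% lower, shares that belong beside the counts of every list below. The median log2 difference of the 12 was 0.04, beside 0.03 over all genes. Sln passed the filter only through its KI arrays and was not called with no filter. Besides Sln, the gene called was Camk2d, a calmodulin-dependent kinase that phosphorylates phospholamban, at 8.58 and 8.48 in KI and 8.03 and 8.10 in WT muscle (0.47 ± 0.10, SE; limma adjusted p = 0.0412). Camk2b, another kinase of this family, differed by 0.27 ± 0.12 (adjusted p = 0.230), and Ppp1r3a, the subunit that brings protein phosphatase to glycogen and the sarcoplasmic reticulum, by -0.48 ± 0.15 (0.123).

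Of 17 tested release channels and junctional partners, 3 were called lower in KI muscle, beside 0.890% of all genes tested. None was called higher, and 13 had negative differences (median -0.17). Jph2, a junctophilin that ties the reticulum to the transverse tubule, was at 7.29 and 7.31 in KI and at 8.00 and 7.88 in WT (-0.64 ± 0.11, SE; limma adjusted p = 0.0202). Its relative Jph1 was at 10.46 and 10.31 against 10.84 and 10.92 (-0.50 ± 0.11; 0.0405). Cacna1s, the voltage sensor that opens the release channel, was at 9.75 and 9.77 against 10.23 and 10.37 (-0.54 ± 0.11; 0.0328). The arrays of the genotypes did not overlap for any of the 3, which their choice by a small p favours. Of all genes tested in muscle, 19.9% had KI below WT without overlap. Asph, whose products include the calsequestrin-binding protein junctin, differed by 0.34 ± 0.12 (adjusted p = 0.157). Calcium-binding proteins of the general endoplasmic reticulum gave 0 calls of 12 with limma and 0 at an unadjusted p under 0.05 (median 0.11). Among them Calr, calreticulin, differed by 0.20 ± 0.11 (adjusted p = 0.331) and Rcn1, a reticulocalbin, by 0.27 ± 0.13 (0.266).

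Among 18 tested genes of calcium removal, mitochondrial uptake, store entry and buffering, 1 rose and 1 fell (median -0.09). Micu2, a gatekeeper of the mitochondrial calcium uniporter, was at 7.92 and 8.03 in KI and at 6.91 and 7.24 in WT muscle (0.90 ± 0.16, SE; 1.87-fold; limma adjusted p = 0.0216). Pvalb, the cytosolic buffer of fast fibres, was at 11.61 and 11.69 in KI and at 12.15 and 12.32 in WT muscle (-0.59 ± 0.13; 0.0439). Slc8a2, a sodium-calcium exchanger, was near the background and differed by -0.72 ± 0.18 (adjusted p = 0.0596).

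The contractile genes of each fibre type give the setting for the calsequestrin pair. All 10 fast-twitch genes had negative differences in muscle (median -0.50) and 2 passed: Tnni2, fast troponin I (-0.55 ± 0.12, SE; limma adjusted p = 0.0409), and Actn3, the actinin of fast fibres (-0.60 ± 0.13; 0.0372). Of 11 slow-twitch and cardiac-type genes, 0 rose and 1 fell (median -0.06). The one that fell was Myl3, the essential light chain of slow and ventricular myosin, at 6.11 and 5.90 in KI and at 8.95 and 7.77 in WT muscle (-2.35 ± 0.30; 0.00638). Myoz2, a Z-disc protein of slow and cardiac muscle, differed by 0.70 ± 0.28 (adjusted p = 0.198). Over all genes tested in muscle, 2.66% were called higher and 0.890% lower, so 0 of 11 called higher says little beside Casq2. Most of the 11 were close to the background: Myh7, Myh7b, Myl2, Myl6b, Tnnt1, Tnni1 and Tnnc1 had muscle group means from 5.1 to 6.21. At such levels their differences, and the median and signs of the list, say little. Others, such as Mybpc1 (11.16 in KI and 11.18 in WT), were well above the background. The 10 fast-twitch genes were negative under each scaling tried, and the release genes with negative differences numbered 12 to 13. Of the 11 slow and cardiac genes, 9 had negative differences, 8 after a second quantile normalisation and 6 with centred arrays.

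Leaving out any 1 of the 4 muscle arrays ended the calls of Camk2d, Jph1, Jph2, Cacna1s, Pvalb, Tnni2 and Actn3, with limma adjusted p from 0.0575 to 0.194. The Micu2 call was lost without KI muscle 94, KI muscle 97 or WT muscle 95 (limma adjusted p from 0.0707 to 0.131), and the Myl3 call was kept under all 18 alternatives. In the cerebellum these lists gave 0 calls with limma. At an unadjusted limma p under 0.05 stood 0 of 9 tested pump regulators, 2 of 19 release genes and 1 of 11 luminal genes. So did 4 of 20 removal and buffer genes, 1 of 6 fast-twitch genes and 1 of 7 slow and cardiac genes. Of all genes tested in the cerebellum, 5.33% had such a p.

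**Figure D4:**
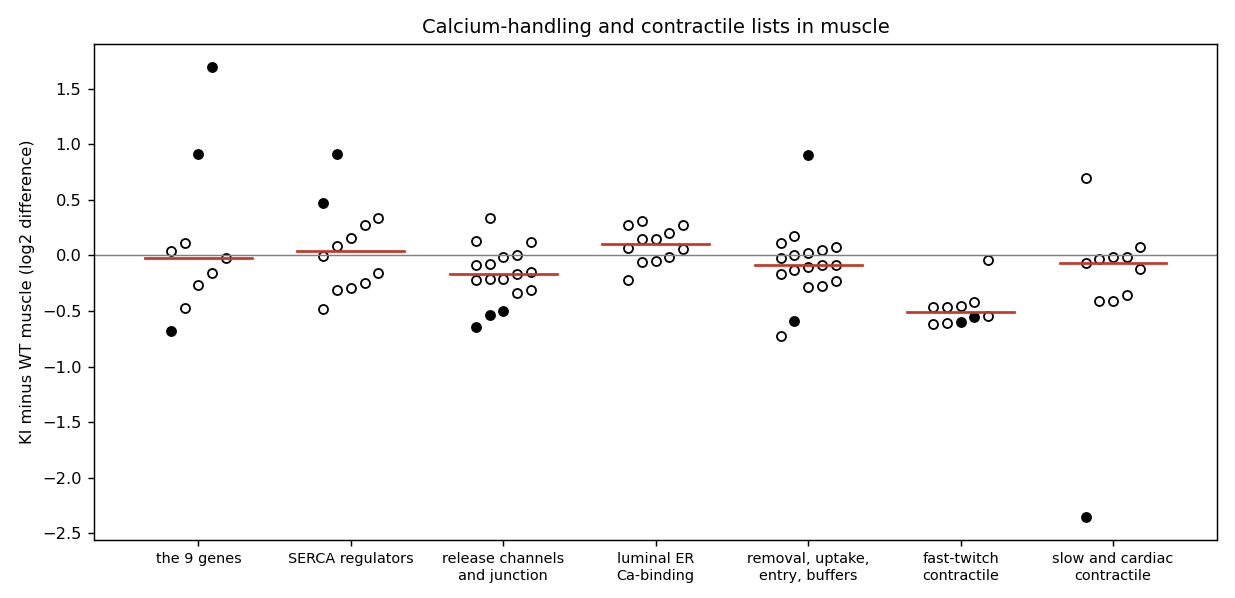
Log2 difference, KI minus WT in muscle, of every tested gene of the 6 lists of genes that act with the calcium store, with a point per gene, filled where limma's adjusted p was under 0.05, and a bar at the median. The fast-twitch genes all lie below 0, and the slow or cardiac list holds 1 filled point, Myl3 at -2.35.

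Marker genes of other cell types were read beside the muscle results. Cardiac markers other than these members lay at 4.96 to 6.13 on the muscle arrays, near the background. They summed to 7.99 to 8.08 on the KI and 8.20 to 8.23 on the WT arrays, with 5 of 6 negative and 0 called. Their cerebellar sums were little lower, at 7.64 to 7.72 in KI and 7.63 to 7.68 in WT. At such levels, this list cannot show whether cardiac-type genes were higher where Casq2 was. Skeletal fibre markers summed to 13.98 to 14.11 in KI and 14.25 to 14.29 in WT, 4 of 6 negative and 1 called lower (Tcap, a titin-binding protein, -0.75 ± 0.14, SE; limma adjusted p = 0.0210). Smooth muscle markers, among them Des, which striated fibres also express, were positive in 6 of 6 (12.21 to 12.25 in KI; 11.96 on both WT arrays), and macrophage markers in 5 of 5 tested, with Aif1 below the 40th percentile on all muscle arrays (8.50 to 8.84 in KI; 8.34 on both WT arrays). Neither list had a call, with limma. Endothelial markers overlapped (9.72 to 10.07 in KI; 9.81 to 10.07 in WT), as did those of choroid plexus (9.70 to 10.19; 9.85 to 10.03) and Schwann cells (9.82 to 10.14; 9.56 to 10.13). The part of fibres, smooth muscle and macrophages in the muscle differences was not tested.

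The genes whose profiles over the 8 arrays were most like those of the calsequestrins were taken by the smallest root mean square difference on the log2 scale, after each of 14708 genes was centred on its own mean. For Casq2 these were Stom (0.255), a membrane protein of the stomatin family, Eda2r (0.281), a receptor for ectodysplasin, and Smtnl1 (0.321), a smoothelin-like protein. In muscle, Stom was at 8.93 and 9.03 in KI and at 7.64 and 7.75 in WT (1.29 ± 0.13, SE; limma adjusted p = 0.00172). Eda2r was at 6.96 and 7.21 against 5.46 and 5.88 (1.41 ± 0.16; 0.00414), and Smtnl1 at 8.25 and 8.56 against 7.29 and 7.15 (1.18 ± 0.13; 0.00369). All 3 were higher on both KI muscle arrays than on both WT arrays, which their choice by likeness to Casq2 favours, and were called under all 18 alternatives. For Casq1 the most alike were Ppp1r3a (0.151), Myot (0.217), a Z-disc protein, and Atp2a1 (0.246), the fast pump. These profiles are dominated by the difference between muscle and cerebellum, and none of the 3 passed the genotype test in muscle.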

How the data were processed

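Total RNA from tibialis anterior muscle and cerebellum was measured on Affymetrix Mouse Gene 1.0 ST arrays. The authors deposited log2 expression values for each probe set; the submitters' processing notes name GCOS and RMA as tools. Versions, filters and build are not given in these sources. RMA compresses folds of dim probe sets. Of 35556 probe sets, the platform annotation gives 1 symbol to 21789, several to 1621 and none to 12146. The brightest probe set by mean over 8 arrays stood for a gene (19938 genes).

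A 4-group-mean model was fitted to all genes with limma 3.58.1 (R 4.3.3; eBayes, 4 residual and 5.3 prior degrees of freedom), with Benjamini-Hochberg adjustment over 13933 genes in muscle, 13641 in the cerebellum and 14708 across tissues. Genes were called at an adjusted p under 0.05, for tissue also at 2-fold. Replicate numbers were not used to pair arrays. The procedure was tested on simulated data. The number of arrays limits the precision.

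The 9 genes and all lists were chosen with earlier results of these data known. Named genes were the 9, up to 4 per list with the smallest unadjusted p in muscle and 2 in the cerebellum, and the 3 most alike to each calsequestrin; of these, 1 or more per list are described. Tcap, Ttr and Mb were named after their values were seen. Alternatives covered the filter, probe sets, scaling, variances, threshold, arrays fitted, block and each array left out. The looser threshold could not end a call. Each member had 1 probe set, so the settings on probe sets left its difference unchanged.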

Additional observations from a re-analysis of the deposited data

Results flagged for a closer look

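The effect of genotype on Casq2 differed between the tissues by 2.12 on the log2 scale in limma's test of the difference itself. The gene was higher in KI than in WT in muscle on both arrays and lower in the cerebellum on both arrays, and the cerebellar difference alone did not pass the test. That difference was -0.42, and -0.20 without the KI cerebellum 94 array.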

How the results depend on the processing

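With 2 arrays per group, single arrays weigh heavily. The count of genes called in muscle was 495, and 246 with no filter on low values, 155 with the muscle arrays alone, 995 at an adjusted p under 0.1 and 105 to 385 with 1 array left out. In the cerebellum it was 28, and 18 with no filter, 45 with all probe sets tested and 4 to 29 with 1 array left out. For the difference between tissues it was 21, and 3 with no filter, 38 with the filter at the 60th percentile, 63 with trended and robust variances, 108 at 0.1 and 0 to 23 with 1 array left out. For tissue, 4018 genes became 3965 to 4103 with 1 array left out, 4472 with all probe sets tested and 3803 with the filter at the 60th percentile. The 3 members called in muscle became 1 with the muscle arrays alone and 1 to 3 with 1 array left out, and the 1 member called for the difference became 0 to 1. The change of Atp2a1 minus Atp2a3 in muscle was -0.15 after a second quantile normalisation. Over the alternatives, 1186 of 1286 values for named genes kept their direction and side of the threshold. Part of this was fixed in advance, since many named results were never called and the looser threshold could not end a call. Of the named genes called in muscle and followed over the alternatives, only Casq2, Myl3, Stom, Eda2r and Smtnl1 kept the call in every setting.

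Signs turned only for differences that had not passed. Atp2a3 in muscle was 0.012 with centred arrays. Slc8a1, an exchanger, was at -0.23 in muscle by its brightest probe set. With all probe sets tested, the value read for it was 0.042, from another probe set of the gene. With 1 array left out, muscle differences ran from -0.076 to 0.028 for Atp2a3, from -0.028 to 0.12 for Srl and from -0.19 to 0.41 for Atp2a2. Cerebellar ones ran from -0.29 to 0.080 for Hrc and from -0.10 to 0.33 for Atp2a1. Differences between tissues ran from -0.50 to 0.13 for Pln and from -0.81 to 0.078 for Hrc. The cause was not tested.

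No label calls the replicate numbers animals, so they were not taken to pair the arrays. Deviations of arrays with the same replicate number correlated at 0.06 (94 and 97) and -0.10 (95 and 96). With 2 arrays per group, deviations within a group mirror each other, so these values cannot decide whether the arrays share animals. With the number as a random replicate block, 494, 27, 18 and 4016 genes were called for muscle, cerebellum, difference and tissue. As a fixed block, 14 and 4020 were called for the last 2. Neither changed the call of a member.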
